A study of Homo sapiens with 32 samples.

Results

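The BCL2 family decides whether a cell's mitochondria release cytochrome c, the step that commits the cell to apoptosis. The survival proteins BCL2, BCL-XL (gene BCL2L1), BCL-W (BCL2L2), MCL1 and BFL1 (BCL2A1) hold the pore formers BAX and BAK (BAK1) in check, and the BH3-only proteins BIM (BCL2L11), PUMA (BBC3) and NOXA (PMAIP1) release that hold. In blood cells the survival genes are used by lineage: BCL2L1 is known as the survival gene of maturing erythroid cells and platelets, MCL1 is needed by stem cells and granulocytes, BCL2A1 is a target of NF-kappaB in myeloid cells, and BCL2 is the target of venetoclax in acute myeloid leukaemia (AML).

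These 10 genes were followed across 32 established human AML cell lines, each grown without drug and measured once on an Affymetrix expression array of 54675 probe sets. A gene was represented by the probe sets to which the platform annotation gives its symbol and no other, and among those by the brightest on average across the 32 lines. By this rule 9 of the 10 genes had a value, from 29 probe sets, out of 19775 genes with such a probe set. BBC3 had none, since its probe set also lists other genes, and it has no level here. All 9 measured genes passed the filter on low values, a log2 level above 6.73 in at least 3 units, among 15455 genes tested. Differences were tested with limma across all of those genes, and a gene passed when its Benjamini-Hochberg adjusted p was under 0.05.

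The series was made to set gene expression beside the response of each line to inhibitors of the PIM kinases, which phosphorylate the BH3-only protein BAD; the response values were not analysed here. The lineage classes come from what each named line is known to be, and not from the deposited labels. The erythroid or megakaryoblastic class held 8 lines (F-36P, HEL, KMOE-2, MO7E, MOLM-16, OCI-M1, OCI-M2 and SET2). The monocytic class held 13 (GDM-1, HNT-34, ME-1, ML-2, MOLM-13, MV4-11, NOMO-1, OCI-AML2, OCI-AML3, OCI-AML5, SHI-1, SKM-1 and THP-1). The other myeloid class held 11 (EOL-1, FKH-1, GF-D8, HL-60, KASUMI-1, KG-1, KG-1A, NB-4, PL-21, PLB-985 and SH-2). PLB-985 is a sub-line of HL-60 and KG-1A of KG-1, so each pair was averaged and counted once, which leaves 9 other myeloid units and 30 units in all. By the growth protocol no cytokine is named for 21 lines in RPMI 1640 and for 4 in IMDM, F-36P received IL-3 at 5 ng/ml, OCI-AML2, OCI-AML3 and OCI-AML5 received GM-CSF or SCF in alpha-MEM, and the protocol read here names no medium for MOLM-13, MOLM-16 and MV4-11. Each line is a single culture of cells that have adapted to growth in a dish, so a class is a set of different leukaemias. The p-values below set a difference or slope against the spread between lines. An array averages the RNA of a whole culture, in which fewer cells with a transcript and less of it per cell cannot be told apart.

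Levels are log2(signal + 16), and a level is compared between lines for 1 gene at a time, never between genes. The arrays had a common trimmed mean signal, between 500.05 and 500.07. Their median signal was 68.2 to 115.4 on 30 arrays, 198.4 on NOMO-1 and 243.3 on GF-D8. The GAPDH ratio, 3′ over 5′ control probe set, which rises when RNA is degraded or copied short, was between 2.42 and 7.08 on 8 arrays and between 0.871 and 1.24 on the other 24. None of the 8 erythroid or megakaryoblastic arrays was among those 8, against 5 of 13 monocytic and 3 of 11 other myeloid arrays. Members called between the erythroid or megakaryoblastic class and all other lines are therefore also given without those arrays. Calls of named genes that were lost without them are given as well. The classes were checked against marker genes. The erythroid marker score was 0.21 to 3.52 in the erythroid or megakaryoblastic units, against -1.48 to 0.73 in the others. The overlap rested on GF-D8 (0.73), the only unit outside the class above KMOE-2 (0.21) and MO7E (0.64). NOMO-1 came next outside the class with 0.14, below every unit of the class. GF-D8 and NOMO-1 are the arrays of raised median signal, and the part of that in their scores was not tested. The megakaryocyte and platelet score also overlapped, running from -0.78 (OCI-M1) to 2.57 (HEL) in that class. Outside it this score reached 0.86 in HNT-34 and 0.96 in FKH-1. ME-1 had the lowest monocyte and macrophage score of the monocytic class, -1.62, below all 8 erythroid or megakaryoblastic units, so its markers went against its class. HNT-34, with -0.81, also lay inside the range of the erythroid or megakaryoblastic units, -1.59 to -0.58. The monocyte score ran from -1.62 to 3.15 in monocytic units and from -1.47 to 1.48 in other myeloid units, and none of the 16 monocyte markers tested passed between these classes, so the markers did not separate them. A score is the mean over a marker list of each gene's log2 level minus that gene's mean over the 30 units.

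The 3 genes whose level differed between the classes were BCL2, BCL2L1 and BCL2A1, and their promoter windows are printed here because the lineage result rests on them. Each runs from 250 bases before to 50 bases after an annotated transcription start, on the minus strand of GRCh38.p14, as given by RefSeq. The windows were searched on both strands for 6 motifs, and matches are in capitals. The GATA motif was AGATAA, or TGATAA. The STAT motif was TTCNNNGAA, the E-box was CACGTG and the ETS motif was CCGGAAGT. The AP-1 motif was TGANTCA, and the sixth was the kappaB motif. The first is BCL2 at chr18:63319720-63320019, with no match. The second is the BCL2L1 start at chr20:31723914-31724213, with an ETS match from base 10 after the start. The third is BCL2A1 at chr15:79971147-79971446, with a STAT match from 168 bases before the start.
BCL2: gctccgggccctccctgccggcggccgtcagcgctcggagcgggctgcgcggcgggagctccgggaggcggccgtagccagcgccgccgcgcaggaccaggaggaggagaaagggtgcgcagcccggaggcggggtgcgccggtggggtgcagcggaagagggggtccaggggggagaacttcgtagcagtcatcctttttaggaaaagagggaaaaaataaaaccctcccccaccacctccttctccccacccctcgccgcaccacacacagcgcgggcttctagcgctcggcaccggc
BCL2L1: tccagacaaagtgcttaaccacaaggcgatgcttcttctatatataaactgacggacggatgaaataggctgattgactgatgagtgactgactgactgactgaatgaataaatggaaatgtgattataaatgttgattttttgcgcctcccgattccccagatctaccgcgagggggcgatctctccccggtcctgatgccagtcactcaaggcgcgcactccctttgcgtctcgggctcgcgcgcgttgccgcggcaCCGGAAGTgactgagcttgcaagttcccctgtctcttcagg
BCL2A1: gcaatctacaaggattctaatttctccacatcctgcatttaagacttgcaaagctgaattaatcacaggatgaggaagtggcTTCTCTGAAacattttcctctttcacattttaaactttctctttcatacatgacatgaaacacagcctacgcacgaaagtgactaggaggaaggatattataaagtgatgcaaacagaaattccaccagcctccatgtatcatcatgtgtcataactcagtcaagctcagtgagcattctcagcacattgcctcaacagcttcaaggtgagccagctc
The ETS letters occur in 4.14% of all 35116 windows of this length and the STAT letters in 7.66%. Windows were found for 8 of the 10 genes, and BCL2L1 had another, without a match. The GATA letters, present in 16.3% of all windows, and the kappaB letters, present in 0.558%, were in none of the 9 windows. BAX held the E-box letters 4 times, and 7.26% of all windows hold them at least once. A match says that these letters are there and not that a factor binds them.

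BCL2, the survival gene first found at a lymphoma translocation, spans chr18:63123346-63320090. It was the member that separated the erythroid or megakaryoblastic lines furthest. Its level was 7.23 in OCI-M2, 7.42 in SET2, 7.48 in MOLM-16, 7.88 in HEL and 8.04 in KMOE-2. F-36P had 9.42, OCI-M1 10.81 and MO7E 12.27. The lowest, median and highest levels were thus 7.23, 7.96 and 12.27 in the erythroid or megakaryoblastic units, against 10.29 (NOMO-1), 11.60 and 12.35 (ME-1) in the other 22. In 6 of the 8 erythroid or megakaryoblastic units BCL2 lay below every other unit, OCI-M1 lay within the range of the others, and only ME-1 and OCI-AML2 were higher than MO7E. The means were 8.82 ± 1.85 (SD, n = 8) and 11.53 ± 0.57 (SD, n = 22), a difference of -2.71 ± 0.41 (standard error), or 6.56-fold lower, with limma's adjusted p = 3.33e-05. Without the 8 arrays of high GAPDH ratio the difference was again -2.71, with limma's adjusted p = 0.000738. All 4 BCL2 probe sets were lower in the class, by -0.48 to -2.71.

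BCL2L1, which codes for BCL-XL, lies at chr20:31664452-31723963. It ran the other way. Its lowest, median and highest levels were 9.75 (MOLM-16), 10.77 and 11.39 (HEL) in the erythroid or megakaryoblastic units. In the other 22 they were 7.17 (MOLM-13), 9.34 and 10.70 (GDM-1). In 5 of the 8 erythroid or megakaryoblastic units BCL2L1 was above every other unit, and 18 of the 22 others were below every erythroid or megakaryoblastic unit. GDM-1, HNT-34 with 10.56, FKH-1 with 10.31 and ME-1 with 9.98 were the units of the other classes that reached into the range. The means were 10.73 ± 0.48 (SD, n = 8) and 9.21 ± 0.83 (SD, n = 22), a difference of 1.52 ± 0.31 (standard error), or 2.86-fold higher, with limma's adjusted p = 0.00118. It was 1.46 without the arrays of high GAPDH ratio, with limma's adjusted p = 0.0014, and all 4 probe sets were higher in the class, by 0.53 to 2.33.

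BCL2A1, at chr15:79960892-79971196, codes for BFL1, a survival protein induced by inflammatory signals. It was the most variable between lines outside the class: its lowest, median and highest levels were 4.92 (MOLM-16), 5.68 and 7.70 (F-36P) in the erythroid or megakaryoblastic units, against 4.93 (THP-1), 7.75 and 9.76 (SHI-1) in the others. The groups overlapped over nearly their whole low end, since THP-1, KASUMI-1 (5.34), SH-2 (5.49), ML-2 (5.85) and MV4-11 (5.90) were as low as the erythroid or megakaryoblastic lines. The level of BCL2A1 exceeded 6.73, the middle of the whole data set, in 1 of 8 erythroid or megakaryoblastic units, 9 of 13 monocytic units and 6 of 9 other myeloid units. Of these, GF-D8 had 7.61, below the median log2 level of its own array, 8.02. NOMO-1 had 8.27, against 7.74 for its own array. Its means were 5.84 ± 0.86 (SD, n = 8) and 7.56 ± 1.49 (SD, n = 22), a difference of -1.73 ± 0.54 (standard error), or 3.32-fold lower, with limma's adjusted p = 0.0323. The call depended on single lines: limma's adjusted p was 0.0717 without MOLM-16, 0.0689 without OCI-M2, 0.0583 without SET2, 0.0545 without MO7E, 0.0519 without KMOE-2 and 0.0513 without HEL. The difference was -2.11 with limma's adjusted p = 0.0174 without the arrays of high GAPDH ratio. BCL2A1 has 1 probe set, so no other probe set checks it.

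**Figure D1:**
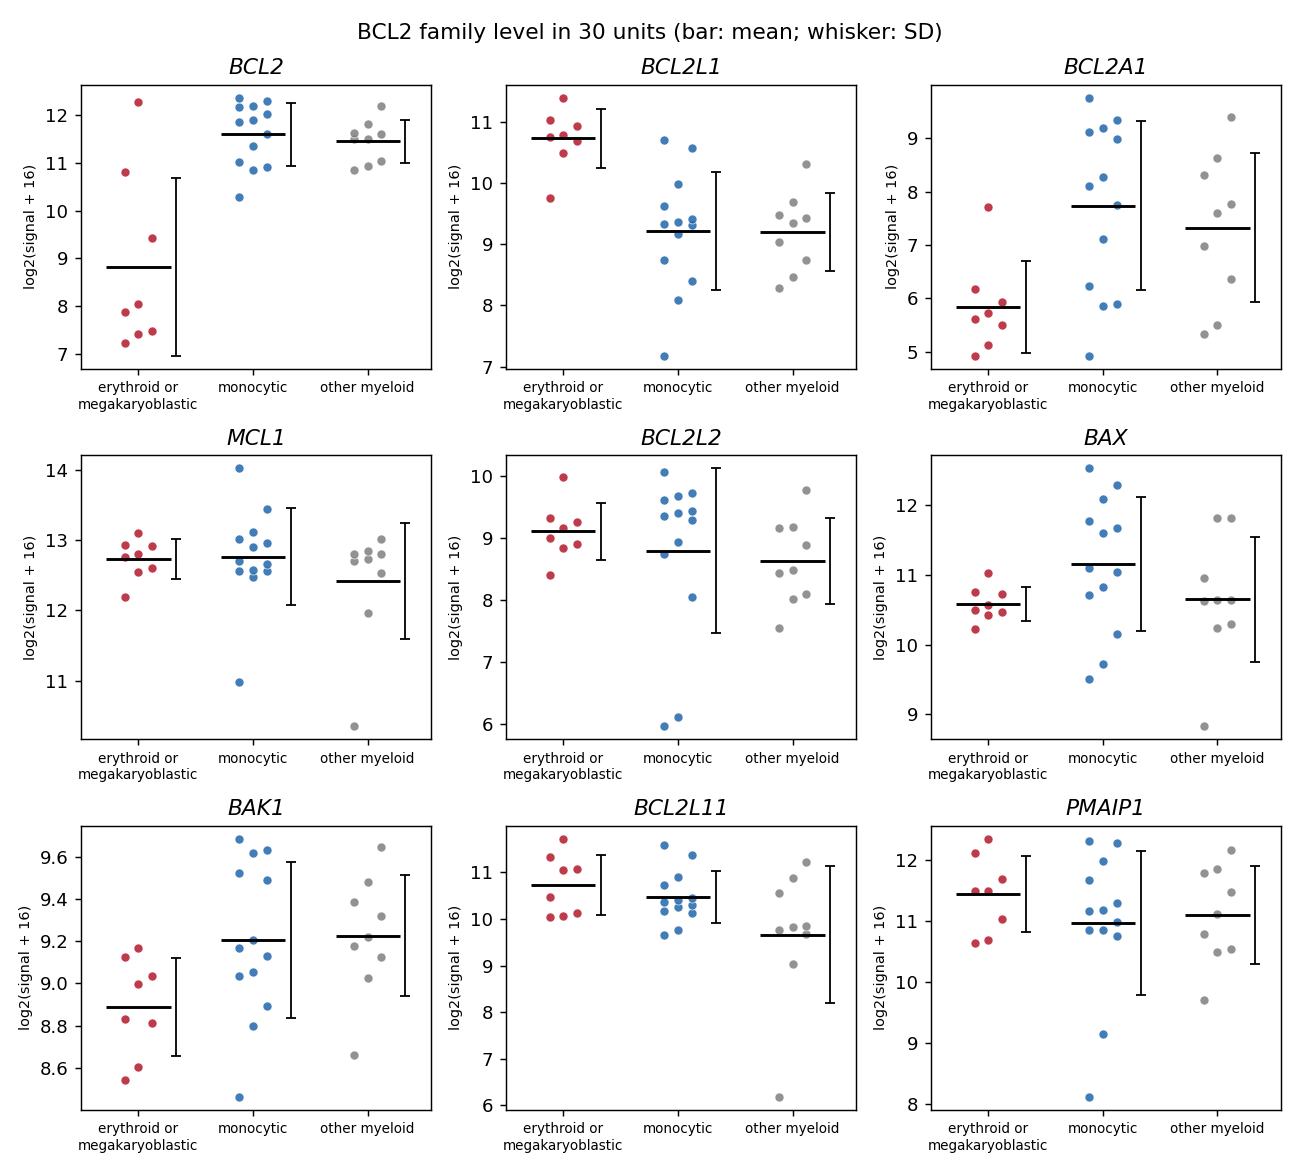
Level of the 9 measured BCL2 family genes, log2(signal + 16), in 8 erythroid or megakaryoblastic, 13 monocytic and 9 other myeloid units (points), with the class mean (bar) and SD (whisker). BCL2 is low in 6 of the 8 erythroid or megakaryoblastic units, BCL2L1 is high there, and SH-2 is the single low BCL2L11 point.

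With BCL2, BCL2L1 and BCL2A1, 3 of the 9 members passed the threshold between the erythroid or megakaryoblastic class and all other lines, 1 higher and 2 lower. Of all genes tested 11.6% passed it, 5.97% higher and 5.65% lower. Every unit of the class lay above every other unit for 0.0324% of all genes and below for 0.0841%, and no member was among these. The median difference was 0.11 over the 9 members and -0.08 over all genes. The other 6 members did not pass. MCL1, the short-lived survival gene, had nearly the same mean in both groups, 12.73 ± 0.28 (SD, n = 8) and 12.62 ± 0.75 (SD, n = 22), a difference of 0.11 ± 0.27 (standard error). Its difference was -0.06 without the arrays of high GAPDH ratio and -0.09 without NOMO-1 and GF-D8, the lines with the lowest MCL1. The 6 MCL1 probe sets were themselves divided, with 4 higher, by 0.11 to 0.96, and 2 lower, by only -0.08 and -0.03. BCL2L2 differed by 0.38 ± 0.39, the pore formers BAX by -0.36 ± 0.33 and BAK1 by -0.33 ± 0.16, and the BH3-only genes BCL2L11 by 0.60 ± 0.39 and PMAIP1 by 0.41 ± 0.37 (standard errors). Their limma adjusted p-values ran upward from 0.199 for BAK1. All 7 BCL2L11 probe sets were higher in the class, and the mean over them differed by 0.73 with limma's adjusted p = 0.0435.

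**Figure D2:**
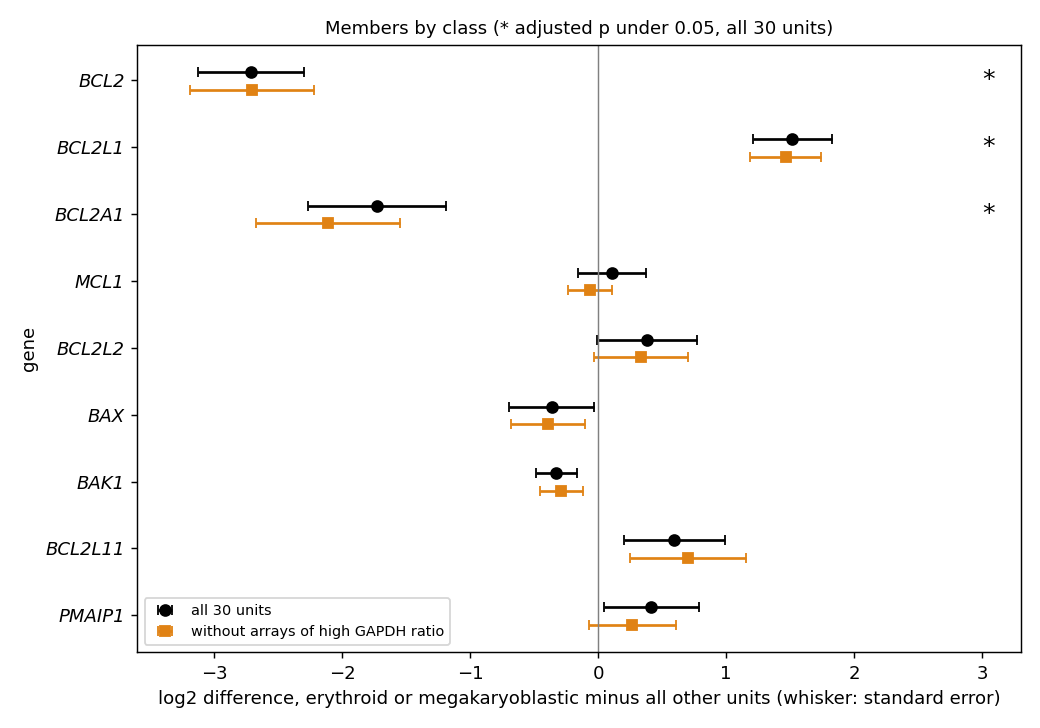
Log2 difference in level, erythroid or megakaryoblastic minus all other units, for the 9 measured members, with standard errors, over all 30 units (circles) and without the 8 arrays of high GAPDH ratio (squares). BCL2 (-2.71) and BCL2A1 (-1.73) lie left of 0, BCL2L1 (1.52) lies right, and the circles of the other 6 lie within 0.60 of 0.

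BCL2 and BCL2L1 differed in opposite directions between the classes, and within the classes their levels were described separately. Across the 22 units outside the erythroid or megakaryoblastic class the 2 genes had a Pearson r of -0.02 (Spearman rho -0.03), and across the 8 units of the class r was -0.14 (rho -0.50), as a description. When each gene was set against its own median over the 30 units, the difference BCL2L1 minus BCL2 was 5.77 in OCI-M2, 5.47 in HEL and SET2, 4.71 in KMOE-2, 4.23 in MOLM-16, 3.23 in F-36P and 1.91 in OCI-M1. These 7 stood above all other units, of which HNT-34 came nearest with 1.62. MO7E, with high BCL2 and high BCL2L1, had 0.19 and lay among the others. At the opposite end were MOLM-13 with -2.20 and OCI-AML2 with -1.93, lines of low BCL2L1 and ordinary or high BCL2.

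**Figure D3:**
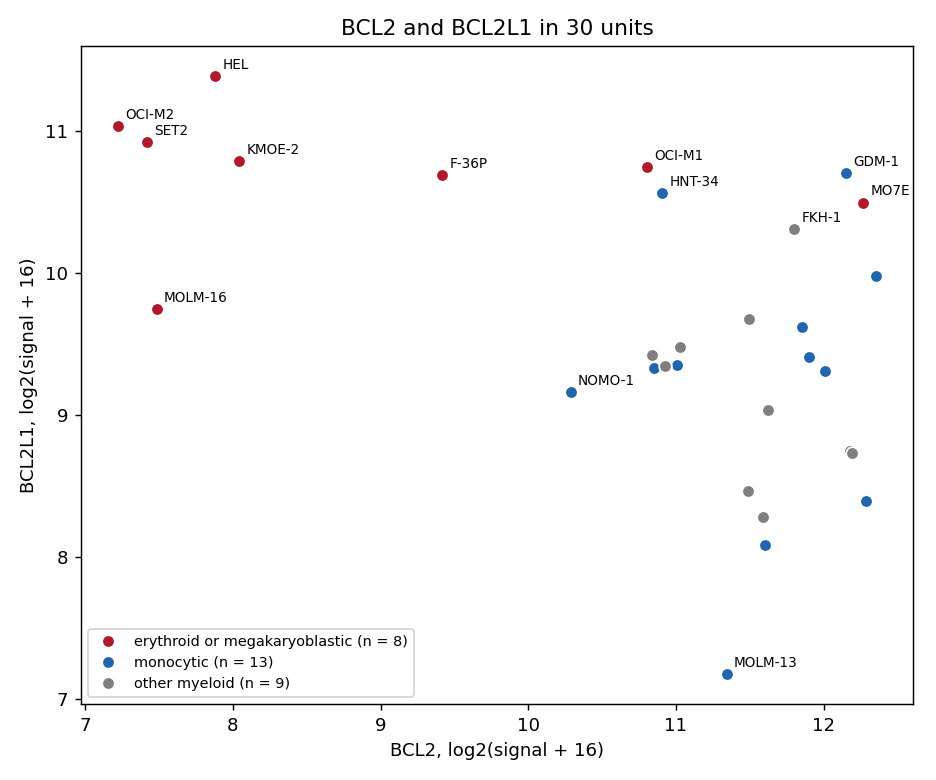
BCL2 level (x axis) against BCL2L1 level (y axis), both log2(signal + 16), for 30 units coloured by class. OCI-M2, SET2, MOLM-16, HEL, KMOE-2 and F-36P lie to the left of every other unit, and MO7E (BCL2 12.27) lies at the far right.

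The erythroid marker score gave the same pair of genes without the class labels, although it is not independent of them. BCL2 fell by 0.80 ± 0.12 and BCL2L1 rose by 0.43 ± 0.09 (standard errors) for each unit of the score, with limma's adjusted p = 1.38e-05 and 0.00133, where 10.2% of all genes passed, 6.04% with a rise and 4.15% with a fall. No other member passed, BCL2A1 having a slope of -0.41 with limma's adjusted p = 0.109. On the monocyte and macrophage score 4.97% of all genes passed, 3.35% with a rise and 1.62% with a fall, and of the members BCL2L1 fell by 0.47 ± 0.13 (limma's adjusted p = 0.0335) and PMAIP1, the gene of NOXA, fell by 0.43 ± 0.12 (limma's adjusted p = 0.0398). The PMAIP1 slope rested on NOMO-1, which had both the highest monocyte score, 3.15, and the lowest PMAIP1 level, 8.12. Without NOMO-1 it was -0.23 with limma's adjusted p = 0.388. Leaving out the arrays of high GAPDH ratio gave a PMAIP1 slope of -0.31 with limma's adjusted p = 0.255. It also lost its call without any one of F-36P, MO7E, KG-1/KG-1A, KASUMI-1, KMOE-2, OCI-AML2, ME-1, FKH-1 or SHI-1. BCL2L1 lost its call without KMOE-2, OCI-AML2, OCI-M2 or HEL, with limma's adjusted p up to 0.0659. With the class as a second term no member passed on this score.

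Which survival gene stood out in each unit was described as the gene, among BCL2, BCL2L1, BCL2L2, MCL1 and BCL2A1, with the largest level above its own median over the 30 units. BCL2L1 led in all 8 erythroid or megakaryoblastic units. It stood above its own median by 1.94 in HEL, 1.58 in OCI-M2, 1.47 in SET2 and 1.34 in KMOE-2. In OCI-M1 it stood above by 1.30, in F-36P by 1.24, in MO7E by 1.04 and in MOLM-16 by 0.29. These values, and those of the other classes below, are levels above the gene's own median and not margins over the next gene. In MOLM-16 the other 4 genes were below their own medians. In F-36P the next gene was BCL2A1 with 0.66, and in MO7E it was BCL2L2, the gene of BCL-W, with 0.90.

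BCL2A1 led in 7 of the 13 monocytic units: SHI-1 (2.71), OCI-AML3 (2.29), HNT-34 (2.15), OCI-AML5 (2.06), SKM-1 (1.95), NOMO-1 (1.23) and OCI-AML2 (1.06). BCL2 led in ME-1 (0.93) and MV4-11 (0.44), MCL1 in THP-1 (0.70) and MOLM-13 (0.21), BCL2L1 in GDM-1 (1.25) and BCL2L2 in ML-2 (0.64). In these 6 lines the leading gene stood 1.25 or less above its own median. Among the 9 other myeloid units BCL2A1 led in 5: KG-1/KG-1A (2.35), PL-21 (1.59), HL-60/PLB-985 (1.27), NB-4 (0.72) and GF-D8 (0.56). BCL2L1 led in FKH-1 (0.86), BCL2 in SH-2 (0.77) and MCL1 in KASUMI-1 (0.27). EOL-1 had no gene above its own median, BCL2L1 being nearest with -0.10.

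The size of these levels above the median can be read against the pairs of sub-lines, which are the nearest thing to a repeat here. The GAPDH ratio was 7.08 on the HL-60 array and 0.933 on the PLB-985 array, so that pair also differed in this ratio. Over the 9 members HL-60 and PLB-985, and KG-1A and KG-1, differed by a median of 0.44 and by at most 1.27 (PMAIP1, higher in HL-60 than in PLB-985). BCL2 differed by 1.04 between HL-60 and PLB-985 and by 0.83 between KG-1A and KG-1. Its levels above the median in ME-1, SH-2 and MV4-11 were thus no larger than what separated a pair of sub-lines. BCL2L1 differed by 0.29 and 0.52 in the same pairs, and its level above the median in MOLM-16 (0.29) was no larger than the second of these. BCL2A1 differed by -0.99 (HL-60 minus PLB-985) and -0.65 (KG-1A minus KG-1). The levels of BCL2A1 above its median in NB-4 (0.72) and GF-D8 (0.56) were thus no larger than what separated HL-60 from PLB-985. The second gene was far behind in some units, as in HEL (1.94 against 0.36) and SHI-1 (2.71 against 0.27). It was close in others, as in MO7E (1.04 against 0.90), FKH-1 (0.86 against 0.70) and OCI-AML2 (1.06 against 0.87). THP-1 (0.70 against 0.60), ML-2 (0.64 against 0.48) and MOLM-13 (0.21 against 0.07) were close too, so which gene led there is not firm. The same gene led in 28 of 30 units when the deviations were divided by each gene's SD, in 26 after quantile normalization, in 25 after centring the arrays on their medians and in 22 with the mean over probe sets. BCL2L1 led in 8, 7, 6 and 7 of the 8 erythroid or megakaryoblastic units in those 4 settings. F-36P and MO7E, or MOLM-16, were the units that changed.

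**Figure D4:**
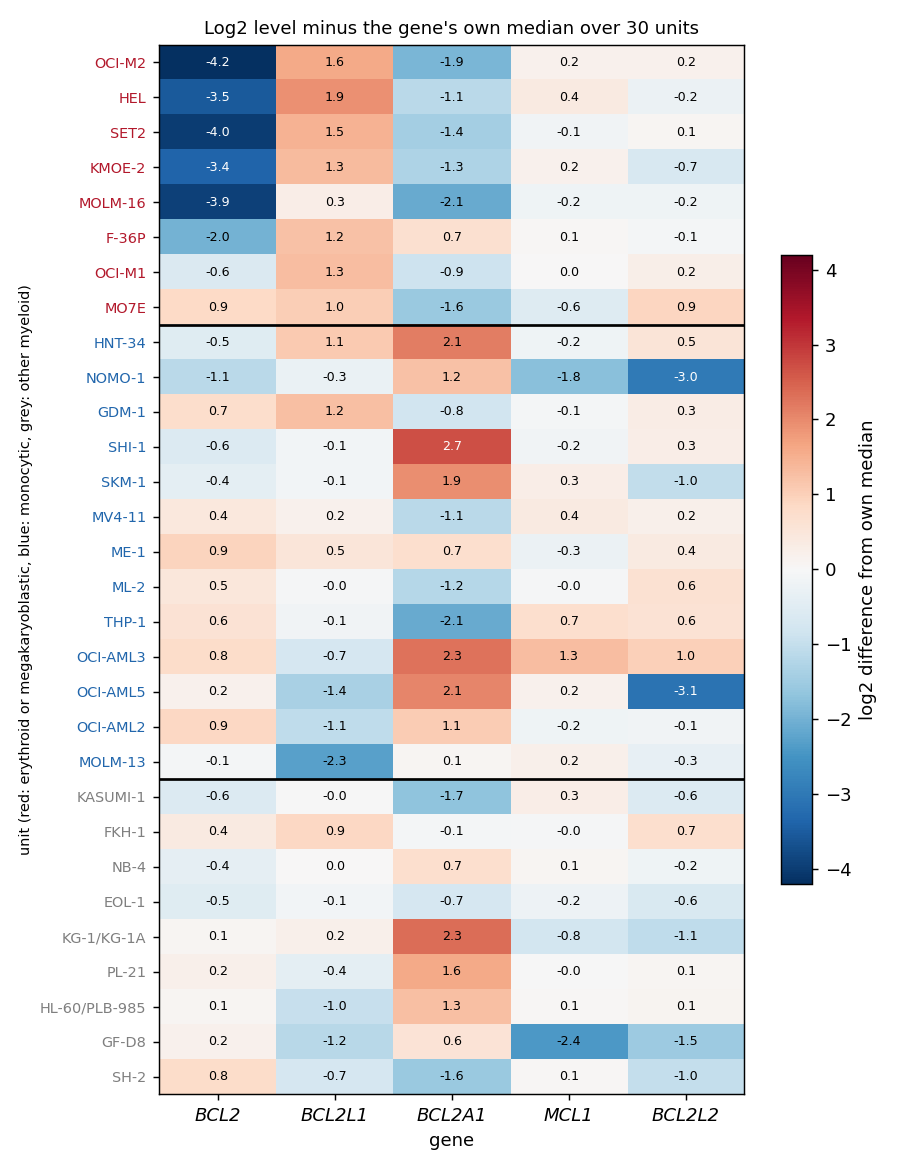
Log2 level minus the gene's own median over 30 units for the 5 survival genes (columns) in each unit (rows), erythroid or megakaryoblastic units at the top, then monocytic and other myeloid units. BCL2 is darkest blue in OCI-M2, SET2 and MOLM-16, BCL2L1 is red across the top block, and BCL2A1 is the most mixed column.

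The monocytic lines were next set against the other myeloid lines. No member passed the threshold, and of all genes 0% passed (0 of 15455, with 698 at an unadjusted p under 0.05 by limma). BCL2A1 averaged 7.73 ± 1.58 (SD, n = 13) in monocytic units and 7.32 ± 1.40 (SD, n = 9) in other myeloid units, a difference of 0.41 ± 0.57 (standard error). BCL2 averaged 11.59 ± 0.66 and 11.44 ± 0.44 (SD), and BCL2L1 9.22 ± 0.97 and 9.20 ± 0.64 (SD). BCL2L11 had the member difference of smallest p, 0.81 ± 0.39 (standard error) with limma's adjusted p = 1.00, and it was 0.37 without SH-2.

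MCL1 ranged from 10.35 in GF-D8 and 10.97 in NOMO-1 to 13.44 in THP-1 and 14.03 in OCI-AML3. The 2 lowest are the arrays that stood apart in median signal and have a high GAPDH ratio, and the part of either in this was not tested. NOMO-1 was also lowest for PMAIP1 (8.12) and second lowest for BCL2L2 (6.11), and GF-D8 was lowest for BAX (8.83). OCI-AML3 was at or near the top for several members at once, with the highest MCL1 and BCL2L2 (10.07) and the second highest BCL2L11 (11.60). Its BCL2A1 level, 9.34, was behind only SHI-1 and KG-1/KG-1A, while its BCL2L1 level, 8.74, was below the median of all units. OCI-AML5 had the lowest BCL2L2 of all, 5.96, and the lowest BAK1, 8.46. These BCL2L2 levels come from its brighter probe set. The other, with a mean of 5.82, had a Pearson r of 0.05 with it over 30 units. That probe set was lowest in F-36P and highest in MO7E.

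BAX, the cytosolic pore former, was highest in MV4-11 with 12.53, MOLM-13 with 12.30 and GDM-1 with 12.10. It was lowest in GF-D8, SHI-1 (9.50) and SKM-1 (9.72). Its level ran with RPS27L (Pearson r = 0.82, Spearman rho = 0.73 over 30 units) and MDM2 (r = 0.82, rho = 0.73), which were the 2 genes most like it among all genes tested. BAK1, the pore former that sits in the mitochondrial membrane, varied least, between 8.46 in OCI-AML5 and 9.68 in HNT-34. Among the genes most like the other members, CAVIN2 had r = 0.83 (rho 0.83) and GFI1B r = 0.82 (rho 0.78) with BCL2L1. GFI1B is a transcription factor of erythroid and megakaryocytic cells, and CAVIN2 is a caveolar protein found in platelets. BCL2 was most like P2RY8 (r = 0.80, rho = 0.51) and NCK2 (r = 0.78, rho = 0.45). BCL2A1 was most like ATP8B4 and PSTPIP1, both with r = 0.63, and BAK1 most like PYCR3 and RPS6KA5, both with r = 0.62. BCL2L2 had r = 0.79 with LOC100506639 and 0.75 with CCDC18-AS1. BCL2L11 had r = 0.75 with BBS7 and 0.74 with ANGEL2, and PMAIP1 had r = 0.76 with NARS1 and 0.70 with SRPK2. These are descriptions over 30 units that share the class difference and the array effects. MCL1 had r = 0.87 (rho 0.57) with UHMK1 and r = 0.86 (rho 0.45) with EDEM3.

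BCL2L11 codes for BIM, the BH3-only protein that binds every survival member. It was 6.18 in SH-2, while the other 29 units had a lowest, median and highest level of 9.03 (KG-1/KG-1A), 10.37 and 11.72 (KMOE-2). SH-2 therefore lay 2.85 below the next unit. It was the lowest of the 30 units in 6 of the 7 BCL2L11 probe sets, by 0.37 to 2.85, and rank 3 from the lowest in the remaining one. The SH-2 array had a median signal of 85.7 and a GAPDH ratio of 0.928, inside the ranges of the arrays that did not stand apart. Of the other members in SH-2, BCL2 (12.19) was 0.77 above its own median, and BCL2A1 (5.49) stood at -1.55, BCL2L2 (8.09) at -0.99 and BCL2L1 (8.74) at -0.72 on that scale. MCL1 (0.06), BAX (0.24), BAK1 (-0.10) and PMAIP1 (0.31) were nearer to their own medians.

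**Figure D5:**
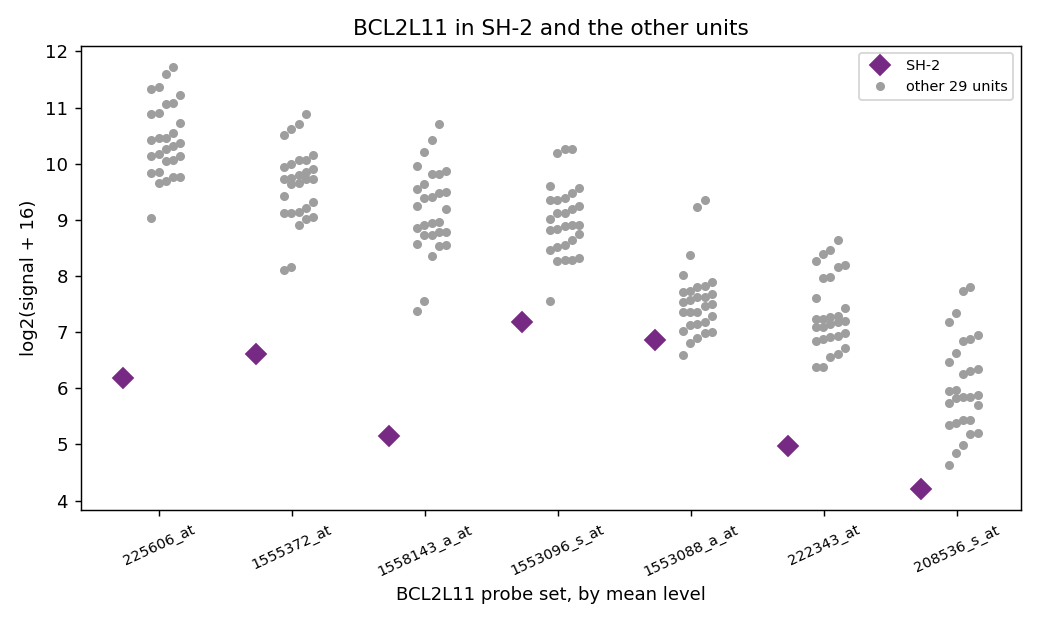
BCL2L11 level, log2(signal + 16), in SH-2 (diamonds) and the other 29 units (points) for each of the 7 BCL2L11 probe sets, ordered by mean level. SH-2 lies below all other units in 6 of the 7, with 6.18 against a next lowest 9.03 in the probe set at the left.

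PIM kinases are the targets of the drugs for which these lines were profiled, so the members were also set against the levels of PIM1, PIM2 and PIM3. On PIM2 1.48% of all genes passed, 0.725% with a rise and 0.757% with a fall, and of the 9 members BCL2L1 did, with a slope of 0.68 ± 0.18 (standard error) per log2 unit of PIM2 and limma's adjusted p = 0.0453. With the erythroid or megakaryoblastic class as a second term it was 0.30 ± 0.20 with limma's adjusted p = 0.92. Within the classes it was 0.18 ± 0.19 over the 8 erythroid or megakaryoblastic units, 0.13 ± 0.57 over the 13 monocytic and 0.65 ± 0.32 over the 9 other myeloid units (standard errors), and none passed. The call was also lost, with limma's adjusted p up to 0.114, without any one of F-36P, MOLM-16, NB-4, THP-1, OCI-AML2, OCI-M1, PL-21, NOMO-1, OCI-AML3, HNT-34, GF-D8, OCI-M2, SH-2, SHI-1, HEL or SET2. BCL2 had a PIM2 slope of -0.77 ± 0.30 that did not pass (limma's adjusted p = 0.164), and 0.17 ± 0.28 with the class as a second term. On PIM1 0.00647% of all genes passed and on PIM3 0.569%, and no member was among them.

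The 4 lines grown with a cytokine were compared with the 23 units for which none was named. No member passed, and 0% of all genes did (0 of 15455, with 878 at an unadjusted p under 0.05 by limma). BCL2A1 was 9.34 in OCI-AML3, 9.11 in OCI-AML5, 8.11 in OCI-AML2 and 7.70 in F-36P, against a lowest, median and highest of 4.93, 6.35 and 9.76 in units with no cytokine named. All 4 cytokine lines were above that median and inside the range. The difference was 1.57 ± 0.76 (standard error) with limma's adjusted p = 0.875. BCL2L1 averaged 8.98 ± 1.17 (SD, n = 4) in the cytokine lines, F-36P being high and the 3 OCI-AML lines low, and 9.82 ± 0.87 (SD, n = 23) in the others. Cytokine and lineage cannot be told apart in the 3 OCI-AML lines, which are all in the monocytic class and grew in a medium of their own.

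Genes around the family were read from 5 lists, again between the erythroid or megakaryoblastic class and all other lines. Of all genes 5.97% rose and 5.65% fell in it, and the counts of these short lists, at 1 to 3 genes each, carry no result about a list as a whole. Of 13 other BCL2 family genes 2 rose and 1 fell. BNIP3L, which clears mitochondria from maturing red cells, rose to 12.66 ± 0.65 (SD, n = 8), against 11.34 ± 1.03 (SD, n = 22) in the others, a difference of 1.32 with limma's adjusted p = 0.0183. It was 0.97 with limma's adjusted p = 0.058 without the arrays of high GAPDH ratio. BMF, a BH3-only gene, fell to 7.02 ± 0.88, against 8.24 ± 0.81 (SD), a difference of -1.22 with limma's adjusted p = 0.0167 (0.0604 without HEL). BCL2L12 rose by 0.65, with limma's adjusted p = 0.038, and lost its call without any one of MOLM-16, MO7E, KMOE-2, OCI-M2, SHI-1, HEL or SET2, or without the arrays of high GAPDH ratio.

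Of 12 apoptosome and caspase genes 1 fell. This was CASP2, a caspase activated after DNA damage, with 11.83 ± 0.54 (SD, n = 8), against 12.73 ± 0.48 (SD, n = 22), a difference of -0.91 with limma's adjusted p = 0.00374. With the mean over its probe sets that p was 0.235. CASP2 also passed on PIM2 (slope -0.47, limma's adjusted p = 0.0259, lost without OCI-M1, OCI-M2 or HEL) and on PIM3 (slope 0.72, limma's adjusted p = 0.0396, lost without any one of F-36P, GDM-1, HL-60/PLB-985, ML-2, NB-4, OCI-M1, GF-D8, OCI-M2, HEL or SET2). Leaving out the arrays of high GAPDH ratio gave a CASP2 slope on PIM3 of 0.64 with limma's adjusted p = 0.508. Both CASP2 calls were lost with the class as a second term. The slope was then -0.29 on PIM2 (limma's adjusted p = 0.92) and 0.52 on PIM3 (limma's adjusted p = 0.339). They were also lost with the mean over its probe sets, with limma's adjusted p = 0.321 on PIM2 and 0.768 on PIM3. Of 8 genes of inhibitors of apoptosis and their antagonists, HTRA2, a protease that counters them, rose by 0.81 (limma's adjusted p = 0.0122) and NAIP fell by 1.28 (limma's adjusted p = 0.0161, but 0.0529 without OCI-M1 and 0.0612 without the arrays of high GAPDH ratio). Of 9 genes that control the turnover of MCL1 or the level of BIM, BTRC, a ubiquitin ligase subunit, rose by 1.25 with limma's adjusted p = 0.00271 (0.232 with the mean over its probe sets). USP13, which removes ubiquitin from MCL1, fell by 0.95 with limma's adjusted p = 0.00156.

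Of 7 death receptor genes 2 fell, TNFRSF10B by 2.29 (limma's adjusted p = 0.0409, and 0.0705 with the arrays of high GAPDH ratio left out) and FAS by 1.56 (limma's adjusted p = 0.0429), both receptors that start the extrinsic route. Both calls were lost in 5 of the 12 alternatives, and single lines decided them. FAS lost its call without any one of F-36P, GDM-1, MOLM-13, MOLM-16, SKM-1, MO7E, KG-1/KG-1A, OCI-AML5, PL-21, HNT-34, FKH-1, SH-2, SHI-1, HEL or SET2, with limma's adjusted p up to 0.133. TNFRSF10B lost it without any one of GDM-1, ML-2, MOLM-13, MO7E, MV4-11, KMOE-2, OCI-AML2, OCI-AML5, PL-21, OCI-AML3, HEL or SET2, and its difference was -1.65 without MO7E. The list medians were -0.27 for the other BCL2 family, -0.06 for the caspases, 0.30 for the inhibitors of apoptosis, -0.07 for the MCL1 and BIM control genes and -0.74 for the death receptors, beside -0.08 over all genes. On the erythroid score BNIP3L (slope 0.36), BTRC (0.33) and HTRA2 (0.27) rose, and BMF (-0.38), CASP2 (-0.27) and USP13 (-0.21) fell. BNIP3L lost that call without F-36P, MOLM-16, OCI-M1 or OCI-M2, and USP13 without F-36P, OCI-M1, OCI-M2 or SET2. On the monocyte score HTRA2 fell by 0.29 and DIABLO, which also counters inhibitors of apoptosis, by 0.21, calls that were lost in 18 and 21 of the 30 fits that left out 1 unit. Leaving out the arrays of high GAPDH ratio also lost both, with limma's adjusted p = 0.0559 for HTRA2 and 0.0517 for DIABLO.

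Markers of blood cell types were counted in the same comparison, in which 5.97% of all genes passed higher and 5.65% lower. Of 16 erythroid markers 14 were higher, and of 16 megakaryocyte and platelet markers 10 were higher and 1 lower. Of 14 granule genes of neutrophils and eosinophils 8 were lower and 1 higher, and of 16 monocyte and macrophage markers 6 were lower. Of 13 stem and progenitor markers 2 were higher, with a list median of 0.00, of 5 T and NK cell markers 1 was lower, and of 5 B cell markers none passed. The part of these in the results on the members was not tested.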

How the data were processed

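The authors deposited 1 table of array intensity values, a linear signal per probe set and array, scaled to a common trimmed mean (2% trimmed at each end, found from the values). Affymetrix Expression Console is named in the submitters' processing notes; its version and the summarization method are not given in the sources used here. Total RNA was amplified once and labelled with biotin, per the labels. No value column was left out. From the deposited intensity, log2(signal + 16) was computed, and no further normalization was applied. Genes were named from the platform annotation, with symbols updated through RefSeq: 41091 probe sets had 1 symbol, 1801 had several and were not used. Every gene took its probe set of highest mean. Genes were tested if they exceeded log2 6.73, the middle of the whole data set, in at least 3 units. limma 3.58.1 in R 4.3.3 (lmFit, then eBayes with a trend) gave log2 differences or slopes, with Benjamini-Hochberg adjustment over all tested genes and a threshold of 0.05. The script was tested on simulated data. With 1 array per line array error was not measured, and precision depends on how many arrays there are. Expression of 10 members, their pathway lists and the marker lists was read with earlier results of these data known, so their choice is not independent of the data. Named list genes were up to 3 of smallest p per list in each comparison where a list held a called gene, and for each member the 2 genes of highest Pearson r. Alternatives were another pseudocount (1 or 64), quantile normalization, median centring, no level filter or a stricter one, the mean over probe sets, 32 arrays as units, no trend, leaving out each unit, leaving out NOMO-1 and GF-D8 or the arrays of high GAPDH ratio and, chosen after seeing the data, the class or the GAPDH ratio as a covariate, slopes within classes, and the leading gene from the mean over probe sets. One further pathway list was analysed and is not reported here.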

Additional observations from a re-analysis of the deposited data

Results flagged for a closer look

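In 3 of the 27 sets of values tested (9 members in 3 classes) the lowest or highest unit stood far from the rest, and chance gives about 1 in 20. MCL1 was lowest in GF-D8 among the 9 other myeloid units, with 10.35 against 11.97 in KG-1/KG-1A, a gap of 0.609 of the whole range. GF-D8 is 1 of the arrays with a high GAPDH ratio and had the highest median signal of all. BCL2A1 was highest in F-36P among the 8 erythroid or megakaryoblastic units, with 7.70 against 6.17 in OCI-M1, a gap of 0.551 of the range. F-36P is the line grown with IL-3. BCL2L11 was lowest in SH-2 among the 9 other myeloid units, with 6.18 against 9.03 in KG-1/KG-1A, a gap of 0.566 of the range, and 6 of its 7 probe sets placed SH-2 lowest of all 30 units. What lies behind these values was not tested.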

How the results depend on the processing

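BCL2 and BCL2L1 kept their direction and limma's call between the erythroid or megakaryoblastic class and all other lines in all 12 alternatives, with differences of -2.79 to -1.43 and of 1.40 to 1.70, and when any one unit was left out. BCL2A1 kept its call in 10 of 12, with limma's adjusted p = 0.0631 after quantile normalization and 0.0667 after median centring, which set the median difference of all genes at 0.11 in place of -0.08. MCL1 turned to -0.089 without NOMO-1 and GF-D8, to -0.062 without the arrays of high GAPDH ratio and to -0.055 with that ratio as a covariate, and ran between -0.00071 (without GF-D8) and 0.186 (without MO7E) when single units were left out. BCL2 on PIM2 turned to 0.17 with the class as a covariate.

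The numbers of genes called by limma moved as follows, and the cause was not tested. For the erythroid or megakaryoblastic class it was 1159 with the ratio covariate. For monocytic against other myeloid lines it was 1 with a pseudocount of 64, with 32 arrays or without NOMO-1 and GF-D8, 2 after quantile normalization or without the trend, and 4 with the ratio covariate. On PIM1 it was 3 with a pseudocount of 1 or quantile normalization, 0 with a filter on the median level, and 2 with median centring, the mean over probe sets, 32 arrays, without NOMO-1 and GF-D8, without the arrays of high ratio or with the class covariate. On PIM2 it was 1737 (quantile), 4091 (median centring), 123 (without the arrays of high ratio), 0 (class covariate) and 11 (ratio covariate). On PIM3 it was 1056 (quantile), 46 (median centring), 22 (no level filter), 208 (filter on the median level), 32 (mean over probe sets), 540 (32 arrays), 31 (without NOMO-1 and GF-D8), 0 (without the arrays of high ratio), 19 (no trend), 2 (class covariate) and 0 (ratio covariate). For the cytokine lines it was 4 without the arrays of high ratio. On the monocyte score it was 485 (quantile), 288 (median centring), 375 (filter on the median level), 484 (without NOMO-1 and GF-D8), 364 (without the arrays of high ratio), 24 (class covariate) and 318 (ratio covariate).

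Members called on PIM2 were 3 after median centring and 0 with no level filter, the mean over probe sets, without NOMO-1 and GF-D8, or with the class or the ratio covariate. Members called on the monocyte score were 0 after quantile normalization, median centring, a filter on the median level or with either covariate, and 1 with no level filter, without NOMO-1 and GF-D8 or without the arrays of high ratio. Leaving out each unit in turn gave 1393 to 1972 genes and 2 to 3 members for the erythroid or megakaryoblastic class, and 0 to 3 genes for the monocytic class. It gave 1 to 3 genes on PIM1, 0 (without OCI-M1) to 404 (without KMOE-2) genes and 0 to 1 member on PIM2, 3 (without NB-4) to 418 (without NOMO-1) genes on PIM3, and 0 to 1 gene for the cytokine lines. It gave 1223 to 1787 genes and 2 members on the erythroid score, and 415 (without NOMO-1) to 1204 (without GF-D8) genes and 0 to 2 members on the monocyte score. No paired analysis was possible because the labels give no replicate numbers and each line has 1 array.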
